A study of Mus musculus with 7 samples.

Results

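Olfactory receptor genes of mouse chromosome 2 were taken as the protein-coding genes of this chromosome whose symbol is Olfr followed by digits alone. The rule found 286 genes of 21631 protein-coding genes on chromosomes 1 to 19 and X, and it used no measured value. A further 820 such genes lay on other chromosomes. The cells were mouse leukaemia cells of the BALB/c background, derived from bone marrow given mutant CSF3R and mutant CEBPA by retrovirus, and both groups carried both mutants. One culture was grown with GSK-LSD1, an inhibitor of the histone demethylase LSD1 (gene Kdm1a), at 4 nM for 48 h, and the other with the solvent DMSO. Chromatin immunoprecipitation and sequencing (ChIP-seq) was run for H3K4me1, H3K4me3 and H3K27Ac, with 1 library per mark and treatment and 1 input library.

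The authors deposited 1 segmentation per treatment, in which every 200 bp bin of the genome carries a state from E1 to E6. E3 covered 70.1% of the genome with GSK-LSD1 and 73.3% with DMSO and is called background here, and the other 5 states are called marked. The sources used here do not give the histone marks behind each state, and the same number can mean different marks in the 2 segmentations, so marked chromatin as a whole is given beside E2, the most widespread marked state. With 1 segmentation per treatment there was no replicate spread, and no difference below carries a test. Intervals are 95% Wilson intervals and cover counting error over genes only. Neighbouring genes share one stretch of chromatin and are not independent. Each segmentation describes many cells together, so a state held by all cells and one held by some of them cannot be told apart.

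Olfactory receptors are G protein-coupled receptors of the sensory neurons of the nose, and the genes form the largest gene family of the mouse genome. Most have their coding sequence in a single exon and sit side by side in clusters. A mature olfactory neuron expresses one receptor allele, from a choice made among clusters that are otherwise packed in silent heterochromatin. In mouse olfactory neurons LSD1 takes part in starting that choice, and its removal belongs to the steps that make the choice stable. In blood cells the family is generally regarded as silent. H3K4me1 is known from enhancers, H3K4me3 from promoters and H3K27Ac from active forms of both.

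Start windows of 5 of the genes are shown. Olfr1294 is the first gene of the longest gain of E2, the state found at most marked starts of receptor genes with GSK-LSD1. Olfr1257, Olfr1264 and Olfr1301 carried E1, E4 or E6, and Olfr338 was unmarked. Each holds 250 bases before and 50 bases after the annotated start, from RefSeq on GRCm38.p6, written 5′ to 3′ on the gene's strand. Capitals mark ATG at bases 251 to 253, and also TAATTA, a homeodomain-type motif, where it occurs.

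Olfr1294 (chr2:111538238-111538537, minus strand; E2 with GSK-LSD1, background with DMSO): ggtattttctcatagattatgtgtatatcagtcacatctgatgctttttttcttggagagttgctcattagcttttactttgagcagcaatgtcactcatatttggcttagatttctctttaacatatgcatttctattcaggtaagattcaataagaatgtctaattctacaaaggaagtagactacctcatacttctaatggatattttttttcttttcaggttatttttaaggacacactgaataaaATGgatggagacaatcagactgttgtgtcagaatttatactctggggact

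Olfr1257 (chr2:89880578-89880877, plus strand; E1 with GSK-LSD1, background with DMSO): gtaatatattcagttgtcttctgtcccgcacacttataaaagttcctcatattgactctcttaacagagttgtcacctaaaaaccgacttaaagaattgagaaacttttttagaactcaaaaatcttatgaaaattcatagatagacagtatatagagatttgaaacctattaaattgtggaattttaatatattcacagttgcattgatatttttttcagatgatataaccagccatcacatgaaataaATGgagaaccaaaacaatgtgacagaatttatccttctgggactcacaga

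Olfr1264 (chr2:90022015-90022314, minus strand; E6 with GSK-LSD1, E4 with DMSO): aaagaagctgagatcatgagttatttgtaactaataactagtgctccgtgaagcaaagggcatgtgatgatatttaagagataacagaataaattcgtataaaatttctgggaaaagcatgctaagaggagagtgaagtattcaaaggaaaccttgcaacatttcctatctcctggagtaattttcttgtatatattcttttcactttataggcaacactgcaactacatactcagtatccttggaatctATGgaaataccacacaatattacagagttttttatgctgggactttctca

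Olfr1301 (chr2:111754001-111754300, plus strand; E1 with GSK-LSD1, E1 with DMSO): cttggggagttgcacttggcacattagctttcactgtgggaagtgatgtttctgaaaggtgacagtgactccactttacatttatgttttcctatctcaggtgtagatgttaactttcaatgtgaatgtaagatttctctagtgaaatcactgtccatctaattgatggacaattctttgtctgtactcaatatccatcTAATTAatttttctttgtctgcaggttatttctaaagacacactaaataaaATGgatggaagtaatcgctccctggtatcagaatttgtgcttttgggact

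Olfr338 (chr2:36376528-36376827, plus strand; background with GSK-LSD1, background with DMSO): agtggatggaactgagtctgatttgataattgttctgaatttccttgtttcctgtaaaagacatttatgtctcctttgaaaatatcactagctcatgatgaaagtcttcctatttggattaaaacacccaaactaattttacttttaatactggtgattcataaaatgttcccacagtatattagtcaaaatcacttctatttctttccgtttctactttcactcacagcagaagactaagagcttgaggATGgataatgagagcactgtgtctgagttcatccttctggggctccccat

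Windows were available for 242 of the 286 genes (244 windows), and 182 windows had ATG at the first annotated base, so most of them begin at the coding sequence and may lie away from the start of transcription. In Olfr1301, 45 bases lie between TAATTA and ATG, and the other 4 sequences hold no TAATTA.

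The 286 genes formed 3 clusters when genes at most 500 kb apart were joined, and the same clusters came out at 200 and 1000 kb. All coordinates are on chromosome 2 of mm10 (GRCm38). The proximal cluster ran from 36376778 to 37332732 (955.955 kb) and held 27 genes, from Olfr338 to Olfr368. The central cluster ran from 85330967 to 90401674 (5070.71 kb) and held 222 genes, from Olfr987 to Olfr1274. The distal cluster ran from 111230853 to 112157007 (926.155 kb) and held 37 genes, from Olfr1275 to Olfr1318. Annotated Olfr pseudogenes lay among them, 5 in the proximal, 71 in the central and 9 in the distal cluster.

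The 3 clusters differed in how much marked chromatin they carried. The distal cluster was 57.2% E2 with GSK-LSD1 and 6.0% with DMSO, the central cluster 6.19% with GSK-LSD1 and 1.84% with DMSO, and the proximal cluster was background in every bin of both segmentations. In length, E2 covered 530.0 kb of the distal cluster with GSK-LSD1 and 55.6 kb with DMSO, and 313.8 kb of the central cluster with GSK-LSD1 and 93.2 kb with DMSO. All marked states together covered 59.2% of the distal cluster with GSK-LSD1 and 6.58% with DMSO, and 7.11% of the central cluster with GSK-LSD1 and 2.02% with DMSO. Over the 3 clusters marked chromatin came to 908.6 kb with GSK-LSD1 and 163.4 kb with DMSO.

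The difference ran in a single direction inside the clusters. Of the bins that were background with DMSO, E2 took up 485 kb (56%) in the distal and 247 kb (4.97%) in the central cluster with GSK-LSD1. No bin of the 3 clusters that was marked with DMSO was background with GSK-LSD1. Elsewhere on chromosome 2 both directions occurred: 11.4% of the DMSO background became E2 and 14.0% of the DMSO marked bins became background. Inside the clusters the pooled shares were 10.8% and 0%, with 485 kb of the gain in the distal cluster. The 0% rests on a small base, 163.4 kb marked with DMSO in 3 stretches of the central and 3 of the distal cluster. E2 covered 24.1% of chromosome 2 outside the clusters with GSK-LSD1 and 26.1% with DMSO, and 12.1% inside the clusters with GSK-LSD1 and 2.14% with DMSO.

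**Figure D1:**
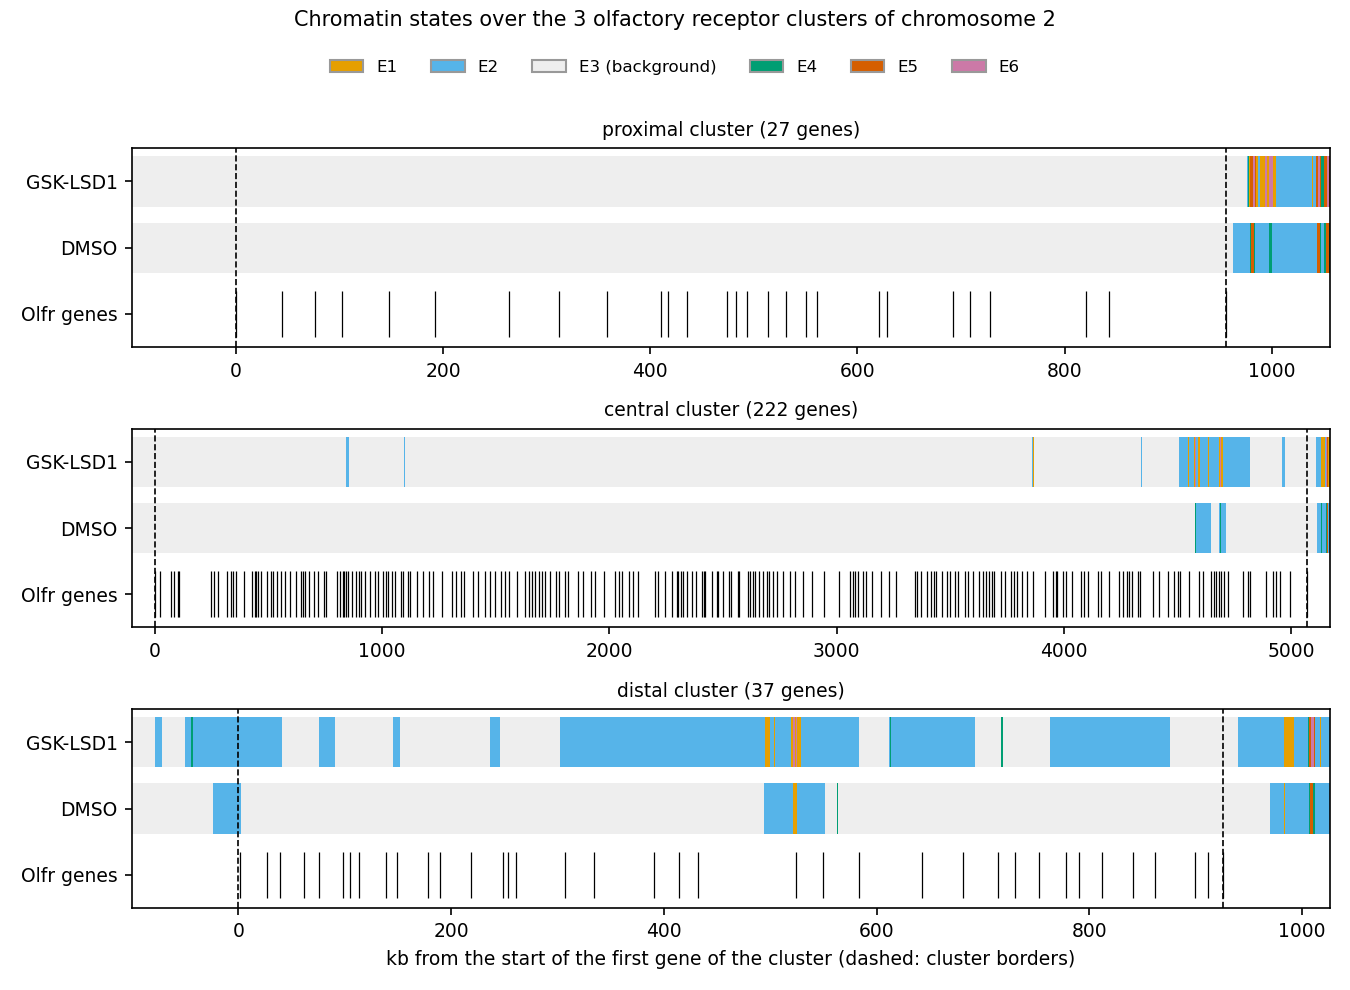
State of each 200 bp bin over the proximal, central and distal clusters and 100 kb to each side, with GSK-LSD1 above DMSO, against the distance in kb from the first gene's start; black lines are the Olfr genes and dashed lines the cluster borders. The proximal cluster is background throughout, the marked stretches of the central cluster lie mostly toward its high end, and E2 covers 57.2% of the distal cluster with GSK-LSD1 and 6.0% with DMSO.

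Gene by gene, E2 overlapped the annotated body of 33 of the 286 genes with GSK-LSD1 (11.5%, interval 8.34 to 15.8%) and of 6 with DMSO (2.10%, interval 0.965 to 4.50%). Over all protein-coding genes the shares were 55% with GSK-LSD1 and 59.6% with DMSO, but receptor gene bodies are short, and a longer body has more bins in which E2 can fall. At the annotated start alone, where length plays no part, E2 was found in 11.6% of the 242 receptor genes with a known strand with GSK-LSD1 and in 1.65% with DMSO, against 9.05% of all protein-coding genes with GSK-LSD1 and 11.4% with DMSO. E2 was present only with GSK-LSD1 in 29 receptor genes (10.1%), against a background of 5.58% of all protein-coding genes. These shares are over all genes, but only genes without E2 with DMSO could gain it. Among those, the counts were 29 of 280 receptor genes and 1206 of 8742 protein-coding genes, which is not a higher share for the receptor genes. E2 was present only with DMSO in 2 receptor genes (0.699%), against 10.1% of all protein-coding genes. Among genes with E2 with DMSO, which alone could lose it, the counts were 2 of 6 receptor genes and 2188 of 12889 protein-coding genes. Both receptor genes with E2 only with DMSO, Olfr1258 and Olfr1263, stayed marked with GSK-LSD1 and carried E1.

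Counted over all marked states, 38 receptor genes were marked with GSK-LSD1 (13.3%) and 8 with DMSO (2.80%), against 73.8% of all protein-coding genes with GSK-LSD1 and 74.9% with DMSO. Of the 278 receptor genes that were wholly background with DMSO, 30 were marked with GSK-LSD1 (10.8%, interval 7.66 to 15.0%). The background for this count was 8.41% of protein-coding genes (456 of 5424), so the pooled share of the family stood near that of genes at large. The pooled share joins clusters that differed, as given next, and receptor gene bodies are short. No receptor gene went from marked to wholly background, and 248 were background in both.

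The share by cluster was uneven. In the distal cluster 18 of 34 genes that were background with DMSO became marked (52.9%, interval 36.7 to 68.5%), and in the central cluster 12 of 217 (5.53%, interval 3.19 to 9.42%). In the proximal cluster the count was 0 of 27. If the genes were independent, this would allow a share of up to 11.1% (3 genes of 27), or 12.5% by the Wilson interval. All 27 lay in a single block of background, so they are not independent and these limits cover counting error only. E2 overlapped 20 of 37 distal genes with GSK-LSD1 and 2 with DMSO, and 13 of 222 central genes with GSK-LSD1 and 4 with DMSO.

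A gene body was most often covered whole or not at all. Of the 33 genes with E2 under GSK-LSD1, 29 were E2 over the whole body, as were 4 of the 6 genes with DMSO. The median body was 945 bp, and the longest marked stretch with GSK-LSD1 was 280.8 kb in the distal and 315.2 kb in the central cluster. In 15 distal and 10 central genes the whole body was E2 with GSK-LSD1 and wholly background with DMSO. The exception in length was Olfr1280, annotated over 60182 bp, of whose 302 bins 40 were E2 with GSK-LSD1 and 0 with DMSO. Summed over the bodies, E2 covered 10.2% of member bins with GSK-LSD1 and 2.52% with DMSO. In the distal cluster these shares were 29.5% with GSK-LSD1 and 3.30% with DMSO, and Olfr1280 alone held 302 of the 545 distal bins counted.

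At the distal cluster, marked chromatin with GSK-LSD1 came as 8 stretches and with DMSO as 3. The first stretch with GSK-LSD1 ran from 111180401 to 111271600 (91.2 kb) across the low border and covered Olfr1275, Olfr1276 and Olfr1277. With DMSO it ran from 111206601 to 111233600 (27 kb) and reached Olfr1275 alone. Olfr1275 was E2 in all 13 bins with GSK-LSD1, and with DMSO in 12 of 13 bins, the remaining bin being E4. Olfr1276 and Olfr1277 were E2 throughout with GSK-LSD1 and background throughout with DMSO.

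The longest distal stretch with GSK-LSD1 ran from 111533401 to 111814200 (280.8 kb) and overlapped 8 genes. Its first 191.6 kb, up to 111725000, were background with DMSO and were the longest gain of E2 in any of the 3 clusters. Olfr1294, Olfr1295, Olfr1297, Olfr1298 and Olfr1299 lay in this gain, and each was 100% E2 with GSK-LSD1 and 0% with DMSO. Right after it came the 57.6 kb stretch that was marked with DMSO as well, from 111725001 to 111782600, which held Olfr1301 and Olfr1302. Olfr1302 was E2 in all 6 bins in both segmentations. Olfr1303, at the far end, was E2 in 3 of 6 bins with GSK-LSD1 and in 0 with DMSO.

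Further stretches with GSK-LSD1 had no marked bin under them with DMSO. The one from 111994001 to 112107200 (113.2 kb) covered Olfr1310, Olfr1311, Olfr1312, Olfr1313 and Olfr1314, all wholly E2. The one from 111843001 to 111923600 (80.6 kb) covered Olfr1305 and Olfr1306. Shorter ones held Olfr1279 and Olfr1280 (14.8 kb) and Olfr1284 (7.2 kb), and stretches of 9.4 kb and 1.2 kb held no receptor gene. Together these 6 separate stretches came to 226.4 kb and 10 genes. The genes in them lay 72.8 to 192.0 kb from the nearest bin marked with DMSO (median 123.2 kb). The 8 distal genes whose stretch joined onto a DMSO mark lay 19.6 to 186.8 kb from it (median 69.6 kb).

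The 16 distal genes left as background in both segmentations were Olfr1278, Olfr1281 to Olfr1283, Olfr1285 to Olfr1290, Olfr1307 to Olfr1309 and Olfr1316 to Olfr1318. They fell in runs between the marked stretches, and the last run ended the cluster.

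**Figure D2:**
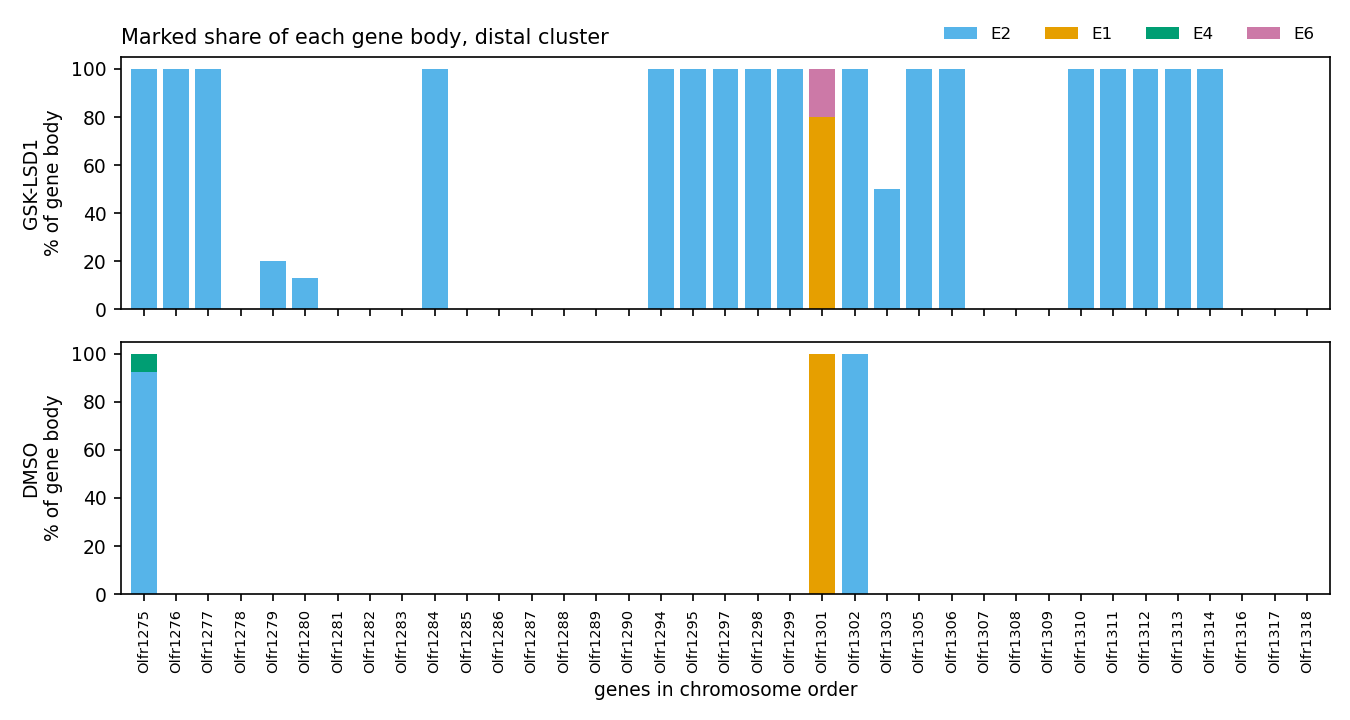
Percent of the body of each of the 37 distal genes in E2, E1, E4 or E6, in chromosome order, with GSK-LSD1 above and DMSO below; the rest of each body is background. With GSK-LSD1, 21 genes are marked in 5 groups of neighbours, and with DMSO 3 are.

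In the central cluster marked chromatin was concentrated toward the high end. With GSK-LSD1 the main stretch ran from 89837401 to 90152600 (315.2 kb) and overlapped 14 genes, from Olfr48 to Olfr1270. With DMSO the same region held 69.4 kb from 89907601 to 89977000, with Olfr1258 and Olfr1259, and 31.6 kb from 90014601 to 90046200, with Olfr1263, Olfr1264 and Olfr1265. Among the 202 central genes before this stretch 3 were marked with GSK-LSD1. Those were Olfr1044 and Olfr52 in a 13.2 kb stretch from 86171401 to 86184600, and Olfr1226 in a 9 kb stretch from 89192601 to 89201600. Olfr1044 was E2 in 3 of 6 bins and Olfr52 in 6 of 6 with GSK-LSD1, and both were background with DMSO, 940.0 and 950.2 kb from the nearest DMSO mark.

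Within the main central stretch Olfr1259 and Olfr1265 were wholly E2 in both segmentations. The longest central gain of E2 ran from 90046201 to 90152600 (106.4 kb), next to the DMSO mark over Olfr1265. It covered Olfr140, Olfr1269, Olfr32 and Olfr1270, each 100% E2 with GSK-LSD1 and 0% with DMSO. Olfr32 is annotated over 11910 bp and overlaps Olfr1270, so both share bins. Olfr48, Olfr1260, Olfr1261 and Olfr1262 were likewise E2 throughout with GSK-LSD1 and background with DMSO. Of the 11 central genes with E2 only with GSK-LSD1, 9 lay in stretches that contained a DMSO mark and 2 in a separate one.

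E1, E4, E5 and E6 were found in 6 receptor genes in all. With GSK-LSD1, E1 overlapped 5 receptor genes (1.75%, against 31.1% of all protein-coding genes) and E6 3 (1.05%, against 41.7%), while E4 and E5 overlapped none (against 54.8% and 54.6%). With DMSO, E1 overlapped 1 (0.350%, against 10.5% of all protein-coding genes), E4 3 (1.05%, against 65.2%), E5 1 (0.350%, against 61.6%) and E6 none (against 10.5%). E5 or E6 lay within 1 kb of a gene end in 59.2% of all protein-coding genes with GSK-LSD1 and in 57.3% with DMSO. The receptor genes almost lacked both states in the body, though their bodies are short and these shares depend on length.

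Olfr1258 (89921944 to 89930746, plus strand) carried the largest number of such bins. With GSK-LSD1 its 45 bins were E1 in 37 and E6 in 8, and with DMSO they were E2 in 35, E4 in 9 and E5 in 1. The DMSO segment of E5 ran from 89921401 to 89922000, over the annotated start of the gene. With GSK-LSD1 an E6 segment from 89920201 to 89923000 lay over that start. Olfr1258 was thus the receptor gene with E5 or E6 at its annotated start in both segmentations.

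The other such genes lay close by, apart from Olfr1301 and Olfr1275 of the distal cluster. Olfr1264 was E1 in 4 and E6 in 2 of 6 bins with GSK-LSD1, and E4 in all 6 with DMSO. Olfr1263 was E1 in all 6 bins with GSK-LSD1 and E2 in all 6 with DMSO. Olfr1257 was E1 in all 5 bins with GSK-LSD1 and background with DMSO, the only receptor gene to pass from background to a marked state other than E2. Olfr1301 was E1 in 4 and E6 in 1 of 5 bins with GSK-LSD1, and E1 in all 5 with DMSO. Over whole clusters, E2 of DMSO became E1 of GSK-LSD1 over 22.4 kb in the central and 11.6 kb in the distal cluster, while 66.8 kb and 44.0 kb were E2 in both. E1 and E6 were also wider with GSK-LSD1 across the genome. E1 covered 4.72% of it with GSK-LSD1 and 0.483% with DMSO, and E6 2.08% with GSK-LSD1 and 0.217% with DMSO.

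The borders of the clusters, set at the outer ends of the first and last genes, differed from one another. At 5 of the 6 borders the first 50 kb inside the cluster held no E2 in either segmentation. The exception was the low border of the distal cluster, where those 50 kb were 81.6% E2 with GSK-LSD1 and 4.8% with DMSO. The 50 kb outside that border were 97.6% E2 with GSK-LSD1 and 48.4% with DMSO, so E2 crossed the border in both. The nearest protein-coding gene outside, A26c3, ended 1.25 kb from it, and its body was 30.4% E2 with GSK-LSD1 and 12.9% with DMSO.

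The high border of the distal cluster looked different. Its last 50 kb, with Olfr1316, Olfr1317 and Olfr1318, stayed background in both segmentations, between E2 on either side with GSK-LSD1. From 50 to 100 kb inside, E2 covered 100% with GSK-LSD1 and 0% with DMSO. In the first 50 kb outside, it covered 73.2% with GSK-LSD1 and 12% with DMSO, and the edge of that E2 lay 13.4 kb from the border with GSK-LSD1 and 43.8 kb with DMSO. The nearest protein-coding neighbour, the predicted gene Gm52523, lay 71.816 kb away and was 70.2% E2 with GSK-LSD1 and 75.4% with DMSO.

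At the proximal cluster, E2 came close to the high border from outside without entering. There it lay 20.4 kb from the border with GSK-LSD1 and 6.4 kb with DMSO, and 14 kb of E2 seen with DMSO were background with GSK-LSD1. The first 50 kb outside were 9.20% E2 with GSK-LSD1 and 72.8% with DMSO, and all marked states together covered 59.2% with GSK-LSD1 and 87.2% with DMSO. The neighbour on that side was Pdcl, a phosducin-like gene, 17.342 kb away. On the low side Ptgs1, which encodes cyclooxygenase 1, lay 118.185 kb away, and the nearest mark was 135.4 kb off with GSK-LSD1 and 137.2 kb with DMSO.

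At the central cluster, the nearest E2 outside the high border was 40.6 kb away with GSK-LSD1 and 45.6 kb with DMSO, on the side of Ptprj, a receptor-type protein tyrosine phosphatase gene 28.082 kb from the border. Inside that border the nearest E2 was 97.6 kb away with GSK-LSD1 and 355.6 kb with DMSO. At the low border the nearest E2 outside was 100 kb away with GSK-LSD1 and 99.8 kb with DMSO, beyond an unmarked zone toward Lrrc55 at 132.217 kb, whose body was background in both segmentations. Inside the low border the nearest marked bin was 840.6 kb away with GSK-LSD1 and 3864.4 kb with DMSO.

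Pooled over the 6 borders, E2 covered 13.6% of the first 50 kb inside with GSK-LSD1 and 0.80% with DMSO, 12.1% of the cluster interior with GSK-LSD1 and 2.20% with DMSO, and 33.1% of the first 50 kb outside with GSK-LSD1 and 23.7% with DMSO. The border value with GSK-LSD1 came from the distal low border alone. With zones of 25 kb and 100 kb the value outside turned to lower with GSK-LSD1 than with DMSO, 24.5% with GSK-LSD1 and 27.3% with DMSO at 25 kb, and 31.8% with GSK-LSD1 and 32.7% with DMSO at 100 kb. The 4 other protein-coding entries inside the clusters, Olfr367-ps, Fads2b, Pramel7 and Pramel6, were background in both segmentations.

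**Figure D3:**
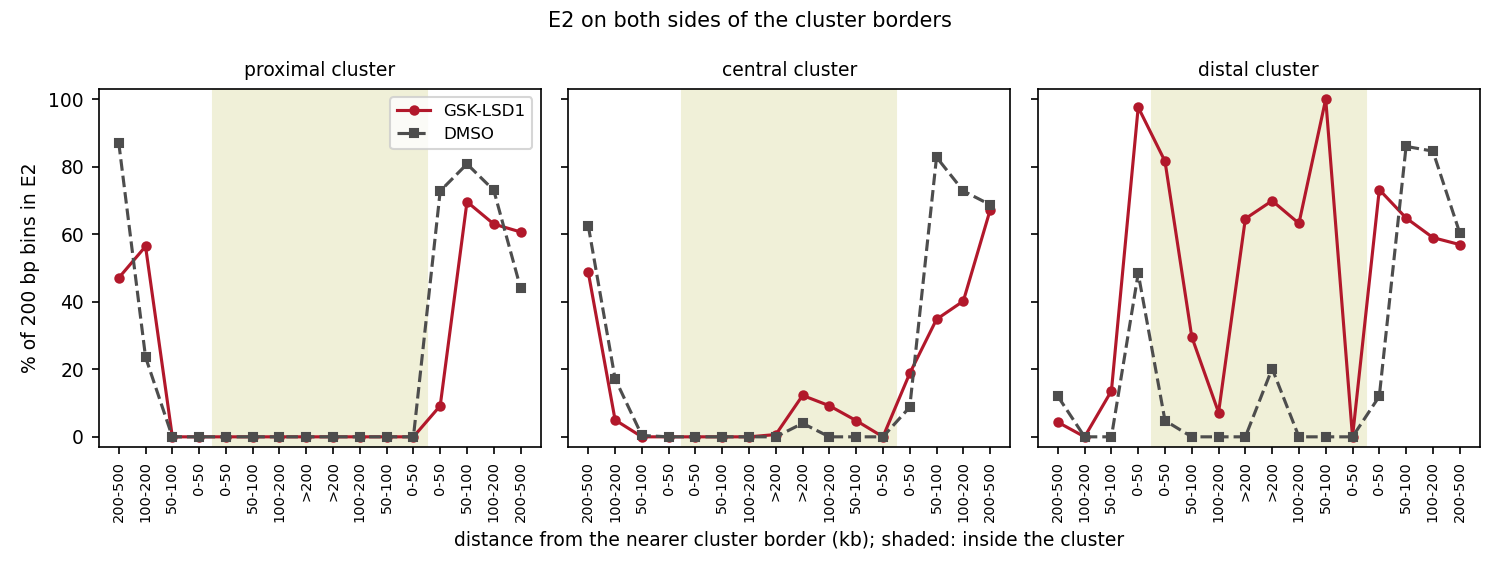
Percent of 200 bp bins in E2 by distance in kb from the nearer border of each cluster, with GSK-LSD1 as filled circles and DMSO as squares; shading marks the inside. E2 lies on both sides of the low border of the distal cluster, and the other 5 borders have 0% in the first 50 kb inside with either treatment.

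The other olfactory receptor genes gave a reference for the family. Of the 820 genes on other chromosomes, E2 overlapped 73 with GSK-LSD1 (8.90%) and 63 with DMSO (7.68%). It was present only with GSK-LSD1 in 40 and only with DMSO in 30, so on other chromosomes both directions were seen. Of those wholly background with DMSO, 5.19% (interval 3.82 to 7.02%) were marked with GSK-LSD1. The chromosome 2 genes stood at 10.8% (interval 7.66 to 15.0%). Neither interval allows for the clustering of genes, so setting them side by side is not a test. Of the 30 newly marked genes of chromosome 2, 18 lay in the distal cluster.

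Set against single clusters, the distal cluster was not alone. Of 33 Olfr clusters with at least 5 genes, 30 lay on other chromosomes with 780 genes, and in these E2 was higher with GSK-LSD1 in 11, lower in 11 and 0 in both in 8. For all marked states the counts were 14 higher, 11 lower and 5 at 0 in both. The median E2 share of these clusters was 3.18% with GSK-LSD1 and 3.27% with DMSO. A cluster of 6 genes on chromosome 1, Olfr16 to Olfr418, had a difference of 51.7 percentage points (79.7% with GSK-LSD1 and 28.0% with DMSO). The distal cluster, with 37 genes, came next at 51.2 points, and the central cluster was in place 8 at 4.35 points. For all marked states the distal cluster was again in place 2, at 52.6 points, and the central cluster in place 10, at 5.09 points. At the other end, Olfr70 to Olfr155 on chromosome 4 was 18.3% E2 with GSK-LSD1 and 31.8% with DMSO. The proximal cluster was one of 9 in which E2 was 0 in both.

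**Figure D4:**
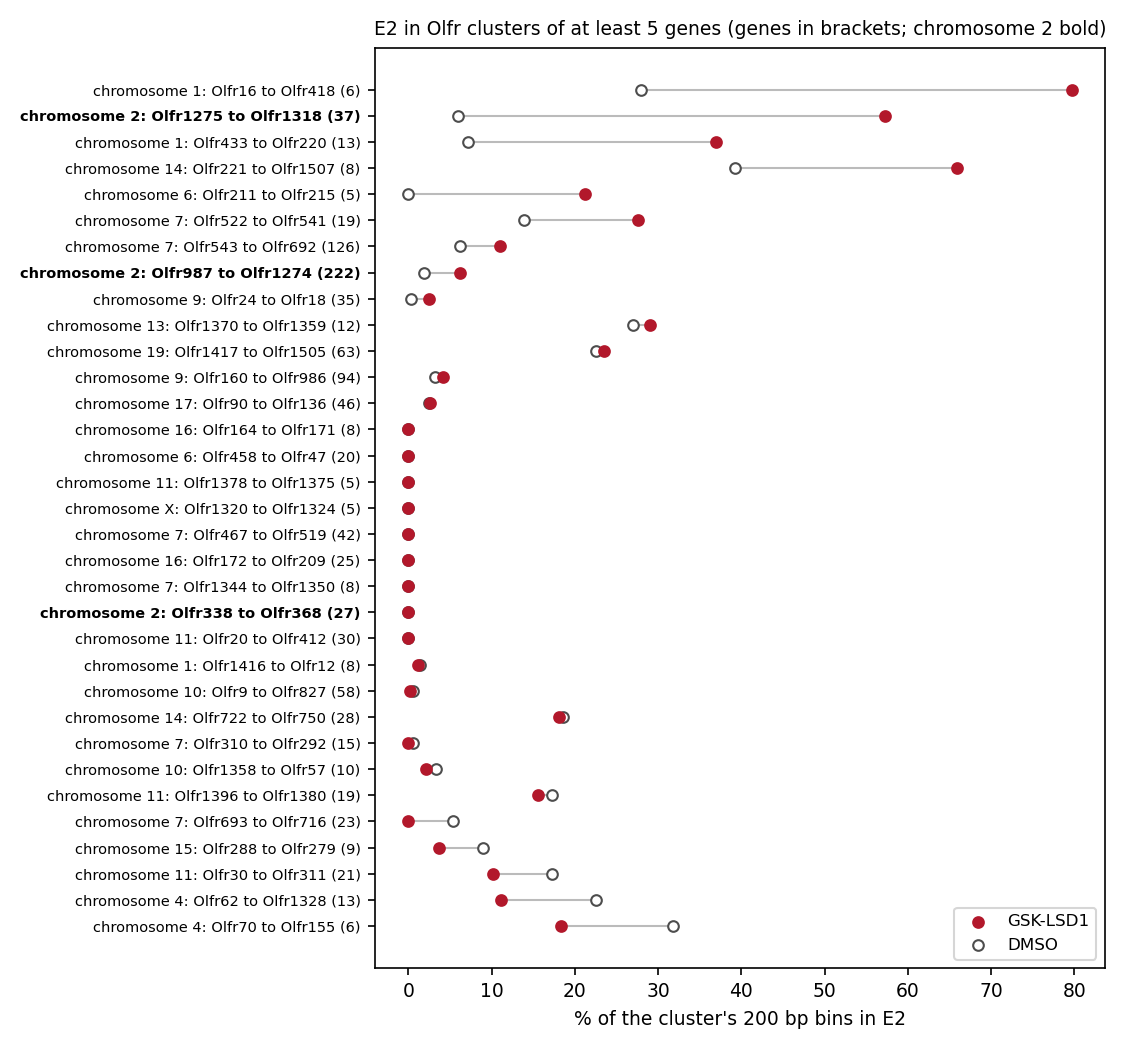
Percent of bins in E2 in each of 33 Olfr clusters of at least 5 genes, with GSK-LSD1 as filled and DMSO as open circles, ordered by the difference; gene numbers are in brackets and chromosome 2 is in bold. The distal cluster stands second, at 57.2% with GSK-LSD1 and 6.0% with DMSO, after a chromosome 1 cluster of 6 genes.

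Other large families of clustered genes were less marked or did not differ in this direction. Vomeronasal receptors of the Vmn1r group, a second family of chemosensory receptors, had E2 in 4 of 230 genes with GSK-LSD1 and in 4 with DMSO. Vmn2r genes had it in 4 of 123 with GSK-LSD1 and in 6 with DMSO, bitter taste receptors (Tas2r) in 3 of 35 with GSK-LSD1 and in 4 with DMSO, and beta-defensins (Defb) in 5 of 42 with GSK-LSD1 and in 9 with DMSO. Keratin-associated proteins (Krtap) had it in 0 of 56 with GSK-LSD1 and in 1 with DMSO, and trace amine-associated receptors (Taar) in 0 of 15 with both.

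The members of the distal cluster belong to only 2 receptor subfamilies in the MOR numbering, which RefSeq lists as synonyms for 279 of the 286 genes. E2 overlapped 12 of 21 genes of MOR245 with GSK-LSD1 and 1 with DMSO, and 8 of 16 genes of MOR248 with GSK-LSD1 and 1 with DMSO. Both subfamilies thus held marked and unmarked genes in like shares. Over all clusters, genes with E2 under GSK-LSD1 fell into 9 of 55 subfamilies. In the central cluster MOR231, with 14 genes, and MOR264, with 15, had no marked gene, and MOR232 had 5 marked genes of 8 with GSK-LSD1. MOR232 includes Olfr1257 to Olfr1260, which are neighbours, so subfamily and position cannot be told apart.

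The starts in E2 numbered 28 of 242 with GSK-LSD1 (11.6%, against 9.05% of all protein-coding genes) and 4 with DMSO (1.65%, against 11.4%). Of the 234 starts that were background with DMSO, 25 were marked with GSK-LSD1 (10.7%), beside 10.4% over all protein-coding genes and 6.19% over the other Olfr genes. The start windows were poor in G and C, with a median of 32.7% against 53.0% over all 32619 windows of the table, and had a median of 1 CpG against 7. TAATTA occurred in 24.6% of the receptor windows, against 5.25% of all windows and 16.6% of those of other Olfr genes. CCCNNGGG, an Ebf-type motif, occurred in 2.05%, against 13.8% and 3.43%. Both strands were searched, both motifs read the same on either strand, and neither contains the other. Windows of genes with E2 under GSK-LSD1 held TAATTA in 9 of 30 (30.0%) and those without in 23.8%. TAATTA is made of A and T alone, and the windows differ in base composition.

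Genes that act with olfactory receptors were read from a list of 21. A bin of E5 or E6 lay within 1 kb of a gene end in 13 of them with GSK-LSD1 and in 12 with DMSO, beside 59.2% of all protein-coding genes with GSK-LSD1 and 57.3% with DMSO, so the list stood near genes at large. Wholly background were 5 with GSK-LSD1 and 3 with DMSO, beside 26.2% of all protein-coding genes with GSK-LSD1 and 25.1% with DMSO. The E2 share of the body was higher with GSK-LSD1 in 3 and lower in 11, beside 17.7% higher and 44.6% lower over all protein-coding genes. Among the signalling genes, Adcy3, the adenylyl cyclase of olfactory neurons, was 93.3% E2 with GSK-LSD1 and 51.6% with DMSO, and Cnga2, a subunit of the cyclic nucleotide-gated channel, was background in both. Rtp1, which carries receptors to the cell surface, was 0% E2 with GSK-LSD1 and 100% with DMSO, and Rtp2, of the same family, was background in both. Of the regulators of receptor choice, Lhx2, a homeodomain factor, and Kdm1a, the drug's target, had an E5 or E6 bin at an end in both segmentations. Among other listed genes, Emx2, Ebf1, Ebf4, Atf5, Eif2ak3 and Ddit3 also had such a bin in both. Ldb1 and Ebf2 had it with GSK-LSD1 alone, and Ebf3 in neither.

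The labelled cell type was checked in the same way. All 6 leukaemia genes read (Ptprc, Spi1, Cebpa, Mpo, Itgam and Csf3r) had E5 or E6 within 1 kb of an end with GSK-LSD1, and 3 with DMSO, read against the same 59.2% and 57.3% of all protein-coding genes with GSK-LSD1 and DMSO. Of 4 genes of olfactory neurons, 1 had such a bin with GSK-LSD1 and 2 with DMSO. With DMSO this measure thus did not set the 2 lists apart, at 3 of 6 and 2 of 4 genes. Over the whole body, Omp and Cnga2 were background in both, and Gnal and Adcy3, which other tissues also use, were not. The segmentations hold no expression values, and whether any receptor gene was transcribed was not measured.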

How the data were processed

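ChIP-seq libraries of H3K4me1, H3K4me3 and H3K27Ac (1 per mark and treatment) and 1 input were aligned with Bowtie to mm10 (GRCm38), per the submitters' processing notes. The authors deposited 1 list of segments per treatment with a state label from E1 to E6, per the labels. The sources used here give neither the segmentation tool, nor the use of the input, the marks behind each state or the handling of reads that match several similar receptor genes. The labels hold no counts, so depth is unknown.

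Segments were expanded to 200 bp bins on chromosomes 1 to 19 and X. A gene was called when a bin overlapping its RefSeq body (GRCm38.p6) had the state. Clusters joined genes at most 500 kb apart. The members and lists were chosen with earlier results of these data known. Named genes were cluster ends, neighbours, genes in the longest gained stretches, the 10 largest rises and falls of E2, genes with E1, E4, E5 or E6, and genes of the pathway list, of which some are not printed; other genes of the marked stretches were named after their values were seen. The counting of gene calls was checked on simulated data, with E2 planted in 200 of 21631 gene bodies. All 200 were called, and the 23 other calls shared a bin with a planted gene. Every bin of a planted body was set to E2, so this checks the counting and not the reliability of the states. Python 3.11.15, numpy 2.4.6 and pandas 2.3.3 were used. Alternatives covered gene windows, calling rules, pseudogenes, cluster gaps, border zones, short segments, all marked states and single clusters left out.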

Additional observations from a re-analysis of the deposited data

How the results depend on the processing

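Across 19 results and 126 alternative values, 95 values were labelled as the same and 31 as moved. For shares and their difference, the limit came from Wilson intervals over 200 bp bins, which are not independent. For counts of genes, it was a change of over 1.5 times or to 0. Shares and counts cannot change sign, and the difference kept its sign in every setting. The order of the 2 treatments turned for the flanks alone. The E2 share of the receptor gene bodies with GSK-LSD1, 10.2%, was 13.9% with pseudogenes included, 12.6% for all marked states, 20.7% without the central cluster and 5.51% without the distal cluster. With DMSO, 2.52%, it was 3.31% for all marked states and 1.99% with genes weighted equally, a setting chosen after seeing the data, as was counting genes by all marked states. The difference, 7.65 points, was 11.8 with pseudogenes, 18.4 without the central and 3.18 without the distal cluster, and each of these settings moved it by over 1.5 times. With 20 kb added to each side of a gene, 59 genes had E2 with GSK-LSD1 and 13 with DMSO, 47 only with GSK-LSD1 and 1 only with DMSO. The 2 genes with E2 only with DMSO became 0 with 5 kb added or all marked states counted and 1 when all bins had to be E2. For all marked states the distal share with GSK-LSD1 was 59.2%, and the central shares were 7.11% with GSK-LSD1 and 2.02% with DMSO. The zone inside the borders was 16.7% with GSK-LSD1 and 1.6% with DMSO at 25 kb, and 18.0% with GSK-LSD1 and 0.40% with DMSO at 100 kb. The interior was 11.6% with GSK-LSD1 at 100 kb, and for all marked states 13.0% with GSK-LSD1 and 2.41% with DMSO. The flanks were 24.5% with GSK-LSD1 and 27.3% with DMSO at 25 kb, 32.7% with DMSO at 100 kb, and 41.9% with GSK-LSD1 and 26.1% with DMSO for all marked states. The causes of these shifts were not tested beyond what each setting leaves out or adds.

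No paired analysis was possible because each mark had 1 library per treatment and the segmentations carry no replicates. A difference between cultures or libraries and one between treatments cannot be told apart. States are discrete calls, and the depth of the libraries was not measured here. The cluster borders rest on annotated genes, and the start windows on annotated starts.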
